A study of Mus musculus with 6 samples.

Results

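Zinc finger genes named from Zfp600 to Zfp999, with or without a letter after the number, were followed in mast cells of 2 mouse strains. The gene table listed 184 such genes, and 181 of them had at least 1 transcript in the deposited tables, out of 35297 genes in all. Bone marrow of BALB/c mice and of C57BL/6 mice, naive and wild type in both cases, was grown in vitro into bone marrow-derived mast cells (BMMCs). The medium held stem cell factor, TGF-β1, IL-9 and IL-3 and was the same for both strains. RNA of BMMCs on day 20 was sequenced in 3 libraries per strain, BALB/c in S9, S10 and S11 and C57BL/6 in S12, S13 and S14. No treatment and no engineered allele separates the groups, so strain is the only difference the labels name. The study describes the 3 libraries per strain as biological replicates. BMMCs are a cultured population and not mast cells taken from a tissue.

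Most of these genes encode proteins with C2H2 zinc fingers, short loops that hold a zinc ion between a pair of cysteines and a pair of histidines and that read DNA bases in tandem. Many also carry a KRAB box at the N-terminal end, which recruits the corepressor TRIM28 and, through it, the histone methyltransferase SETDB1 and heterochromatin proteins. KRAB zinc finger proteins are best known for silencing retroviral and other transposable elements, and their genes lie in clusters that grew by duplication, so that neighbours are often close copies.

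The coding sequences of the members were searched for both features. Of 175 members with a coding sequence in GENCODE's annotation of GRCm39, 113 (64.6%) matched a pattern of the KRAB A box. A finger was counted where a cysteine, 2 residues, a cysteine, 12 residues, a histidine, 3 residues and a histidine followed each other, and the median was 10 fingers per protein with a maximum of 33. Members with the KRAB pattern had a median of 11 fingers and those without it a median of 6. The following 84 bases of GRCm39, 5′ to 3′ on the coding strand, encode 1 finger and the linker to the next, with the codons of the 2 cysteines and 2 histidines of the pattern in capitals. They are shown for Zfp987 at chr4:146061293-146061376 (plus strand, exon 4), Zfp988 at chr4:147416291-147416374 (plus strand, exon 4), Zfp984 at chr4:147839965-147840048 (minus strand, exon 7) and Zfp950 at chr19:61108686-61108769 (minus strand, exon 4), because these genes recur below.
Zfp987: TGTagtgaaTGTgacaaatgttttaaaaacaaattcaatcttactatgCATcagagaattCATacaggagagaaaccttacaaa
Zfp988: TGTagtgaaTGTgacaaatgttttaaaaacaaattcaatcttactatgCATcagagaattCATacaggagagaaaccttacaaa
Zfp984: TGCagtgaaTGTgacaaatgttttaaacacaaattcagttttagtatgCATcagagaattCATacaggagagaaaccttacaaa
Zfp950: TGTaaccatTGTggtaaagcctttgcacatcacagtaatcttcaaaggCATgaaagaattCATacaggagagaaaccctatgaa
The stretches of Zfp987 and Zfp988 were identical over all 84 bases. Zfp984 shared 79 of the 84 bases with both, and Zfp950, on another chromosome, shared 57 with Zfp987. Reads of 100 bases from such stretches can fit more than 1 gene, which bears on how the reads of Zfp987 and Zfp988 were divided.

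Between 28273365 and 37100869 reads per library were assigned to genes, and the members took 0.194% to 0.203% of them in BALB/c and 0.180% to 0.182% in C57BL/6. These shares carry no TMM correction. With plain library size the median log2 fold change, as C57BL/6 over BALB/c, was -0.15 over all tested genes, so a lower share is not particular to the members. The mast cell label was checked against its markers. All 10 mast cell genes of a marker list were tested, and their summed level lay between 124526 and 135024 CPM in BALB/c libraries, against 163068 to 186705 CPM in C57BL/6, where CPM is the read count scaled to library size after TMM correction. Of the 10, 7 passed the adjusted p, all higher in C57BL/6, and 2 of them, Tpsb2 and Hdc, also the fold threshold. Most of the sum came from Mcpt1 at 0.29 (adjusted p = 0.00494) and Mcpt2 at 0.60 (adjusted p = 2.86e-05). Ms4a2 was at 0.25 (adjusted p = 2.56e-04), Kit at 0.14 (adjusted p = 0.0380) and Fcer1a at 0.13 (adjusted p = 0.0127), and Gata2, Cpa3 and Il1rl1 did not pass. No marker of B cells, neutrophils or eosinophils reached the filter on low counts. Of T or NK cell markers Ncr1 alone was tested, at -0.14 (adjusted p = 0.327). The erythroid list had 1 tested gene, Hbb-bt, with 0, 0 and 0 reads in S9, S10 and S11 and 186, 160 and 214 reads in S12, S13 and S14 (edgeR, adjusted p = 7.13e-07), and its summed level was 0.266 to 0.534 CPM in BALB/c libraries against 6.04 to 6.19 CPM in C57BL/6. Of 5 megakaryocyte markers 2 were tested, Gp1bb, higher in BALB/c at -1.89 (adjusted p = 0.0235), and Itga2b, higher in C57BL/6 at 0.58 (adjusted p = 2.88e-06), while Ppbp and Gp9 were at 0. Of 8 macrophage markers 2 were tested and both were higher in C57BL/6, Adgre1 at 4.93 (edgeR, adjusted p = 7.58e-06) and Cd68 at 2.01 (edgeR, adjusted p = 3.54e-05). The summed level of this list was 0.705 to 1.63 CPM in BALB/c libraries against 13.3 to 13.9 CPM in C57BL/6, while C1qa, C1qb, C1qc and Csf1r were at 0 in all libraries. Of 8 basophil markers 4 were higher in C57BL/6 by the thresholds below, with a summed level of 406 to 418 CPM against 512 to 523 CPM, most of it from Mcpt8 and Cd200r3. These 4 were Cebpa at 6.53 (edgeR, adjusted p = 3.34e-08), Prss34 at 5.86 (edgeR, adjusted p = 1.46e-06), Ccl9 at 5.52 (edgeR, adjusted p = 6.42e-08) and Mcpt8 at 1.12 (edgeR, adjusted p = 8.22e-08). Il18r1 was higher in BALB/c at -0.54 (adjusted p = 0.00415), and Cd200r3 was at -0.07 (adjusted p = 0.154). The part of these other cell types in the results was not tested, and in bulk RNA fewer cells with a transcript and less RNA per cell cannot be told apart.

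The members were low on the whole. TPM, which divides reads by transcript length and so allows genes to be compared, had a median over the 6 libraries of 1.79 for all 181 members and of 2.58 for the 149 that passed the filter, against 10.8 for all 12461 genes tested. No read was found for 15 members, 64 had a mean TPM below 1, and 25 had a mean of 10 or more. The 32 untested members included 17 with reads, and 3 of those reached 10 reads in a library. They were Zfp651, with 0, 35 and 55 reads in S9, S10 and S11 and 7, 5 and 7 reads in S12, S13 and S14, Zfp965, with 21 reads in S10 and 0 in the other libraries, and Zfp981, with 2, 3 and 1 reads in S9, S10 and S11 and 10, 5 and 5 reads in S12, S13 and S14.

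The 6 members with the highest TPM made up 25.5% of the TPM of all members. Zfp622, a factor in the maturation of the large ribosomal subunit, was the highest, at 42.4 ± 0.867 TPM in BALB/c and 50.8 ± 3.22 TPM in C57BL/6 (SD, n = 3 each). It was followed by Zfp706, which takes part in the exit of embryonic stem cells from self-renewal, with a mean of 39.6 TPM, Zfp771 with 35.7, Zfp787 with 28.2, Zfp984 with 24.8 and Zfp740 with 20.5 TPM. Only Zfp984 among these 6 matched the KRAB pattern. More generally, members with the KRAB pattern had a median of 1.39 TPM and those without it a median of 3.99 TPM, and of the 25 members at 10 TPM or more, 6 matched the pattern and 19 had a protein without it.

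**Figure D1:**
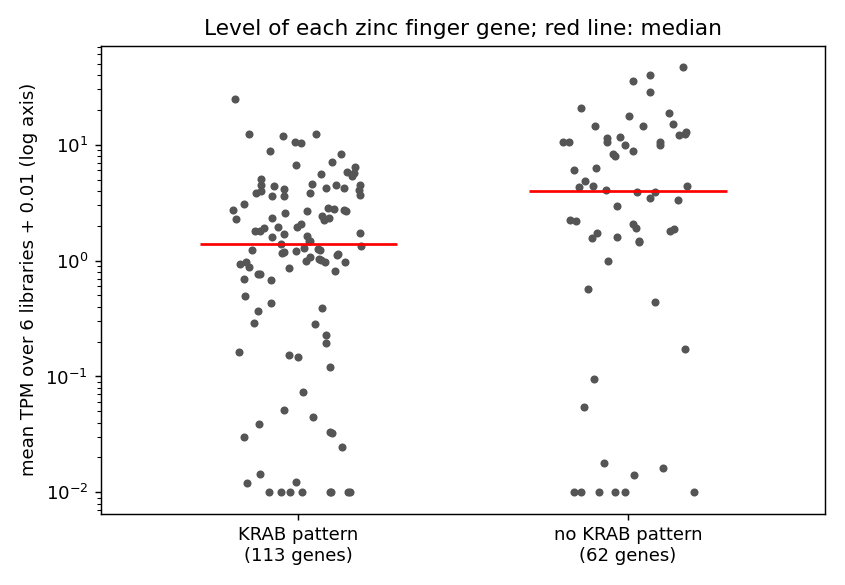
Mean TPM over the 6 libraries plus 0.01, on a log axis, of each zinc finger gene with a coding sequence, for 113 genes with the KRAB pattern and 62 without. Each point is a gene and the red line the median, which is 1.39 TPM with the pattern and 3.99 TPM without it.

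Between the strains, Zfp622 measured 77.4, 80.3 and 78.6 CPM in S9, S10 and S11 and 112, 105 and 103 CPM in S12, S13 and S14. The C57BL/6 libraries were all above the BALB/c libraries, with a log2 fold change, given throughout as C57BL/6 over BALB/c, of 0.44 ± 0.04 (SE) by edgeR's quasi-likelihood test (adjusted p = 3.17e-05). Zfp984 measured 42.1, 42.9 and 41.2 CPM in S9, S10 and S11 and 64.3, 61.5 and 62.2 CPM in S12, S13 and S14, again without overlap and with a log2 fold change of 0.58 ± 0.04 (SE) (adjusted p = 3.08e-06). It shares 56.4% of its 31-base words with Zfp268, to which no transcript was matched, so the pair was not summed. Zfp787 lay the other way at -0.21 (adjusted p = 0.00647). Zfp706 at -0.09 (adjusted p = 0.0936), Zfp740 at 0.01 (adjusted p = 0.818) and Zfp771 at 0.01 (adjusted p = 0.859) did not pass the test, and the values of Zfp740 and Zfp771 turn negative under other scalings. All 6 members were thus within a 2-fold change.

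Genes were called where edgeR's adjusted p was under 0.05 and the fold change above 2 in either direction. Of 149 tested members, 16 (10.7%) were called, against 13.3% of all tested genes. Of these 7 were higher in C57BL/6, where the background was 7.73%, and 9 were higher in BALB/c, where it was 5.54%. By the adjusted p alone 64 members (43.0%) passed, below the 52.9% of all genes, with 25 higher in C57BL/6 (background 27.0%) and 39 higher in BALB/c (background 25.9%). So 48 members passed the test with a fold change below 2. BALB/c libraries were all above C57BL/6 libraries for 54 members (36.2%, background 30.8%) and all below them for 29 (19.5%, background 31.1%). Among the 107 members with a mean of at least 100 counts, 5 were called (4.67%, against 7.79% of all genes at that level).

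The middle of the distribution lay slightly towards BALB/c. The median log2 fold change was -0.13 for the members and -0.01 for all tested genes, and 63.8% of the members were below 0, against 51.1% of all genes. The summed TPM of all members ran from 792 to 825 in the BALB/c libraries and from 699 to 740 in the C57BL/6 libraries, without overlap. TPM carries no TMM correction. On log2(TPM + 1) the median of all tested genes was itself at -0.15, against -0.20 for the members, so most of this gap is not particular to them. The 177 tested genes of the same naming series from Zfp1 to Zfp599 had a median of -0.12, with 62 lower and 29 higher in C57BL/6 by the adjusted p alone, where 25.9% and 27.0% of all tested genes were. Of the members with the KRAB pattern 8 of 93 tested (8.60%) were called, of those without it 6 of 53 (11.3%), both under the 13.3% of all tested genes, and the median log2 fold changes were -0.15 and -0.09.

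**Figure D2:**
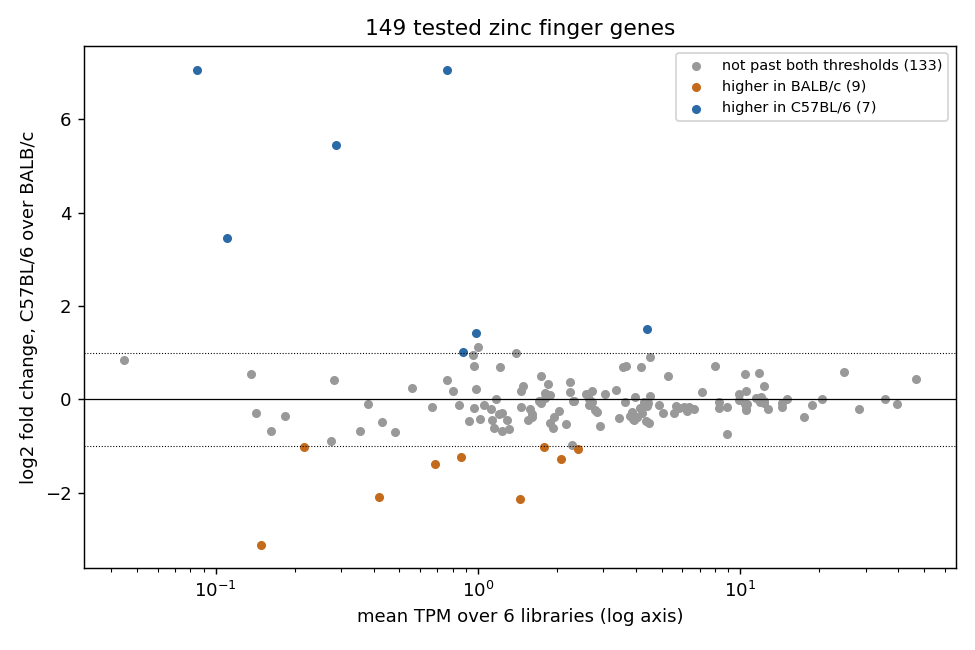
Log2 fold change, as C57BL/6 over BALB/c, against mean TPM on a log axis for the 149 tested members, with the 16 called genes in colour and dotted lines at a 2-fold change. The changes beyond 2-fold lie at a mean below 5 TPM, and the points above 10 TPM lie between the dotted lines.

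Of the 9 members higher in BALB/c, Zfp831 had the smallest adjusted p. This gene (chr2:174485327-174552625, plus strand, GRCm39) encodes a protein of 1628 residues with 1 finger of the strict pattern and no KRAB match. It measured 18.0, 17.9 and 13.7 CPM in S9, S10 and S11 and 3.88, 3.88 and 3.59 CPM in S12, S13 and S14, so that the lowest BALB/c library was more than 3 times the highest C57BL/6 library. The log2 fold change was -2.12 ± 0.13 (SE) (edgeR, adjusted p = 1.39e-06), or 4.36-fold higher in BALB/c.

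Zfp760 (chr17:21926618-21944617, plus strand), with 16 fingers and a KRAB match, measured 3.11, 3.29 and 3.19 CPM in S9, S10 and S11 and 0.970, 1.40 and 1.30 CPM in S12, S13 and S14. Its log2 fold change was -1.39 ± 0.18 (SE) (edgeR, adjusted p = 1.71e-04), and the libraries within a strain lay close together. Zfp810 (chr9:22183979-22219350, minus strand), a KRAB gene with 10 fingers, measured 3.27, 2.92 and 2.26 CPM in S9, S10 and S11 and 1.06, 1.44 and 1.07 CPM in S12, S13 and S14, a log2 fold change of -1.24 ± 0.21 (SE) (edgeR, adjusted p = 9.85e-04). Zfp808 (chr13:62277700-62383958, plus strand), a KRAB gene with 22 fingers, measured 7.54, 7.78 and 6.86 CPM in S9, S10 and S11 and 3.79, 3.66 and 3.16 CPM in S12, S13 and S14, a log2 fold change of -1.06 ± 0.11 (SE) (edgeR, adjusted p = 5.41e-05). It sits just past the 2-fold threshold and falls inside it without S14, at -0.99 (adjusted p = 3.92e-04). When only transcripts matched in the same version were summed, Zfp810 was at -0.78 (adjusted p = 0.431) and no longer called.

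Zfp644 (chr5:106764404-106845153, minus strand), whose human counterpart is a partner of the histone methyltransferases G9a and GLP, measured 8.42, 8.72 and 8.27 CPM in S9, S10 and S11 and 5.63, 3.62 and 3.19 CPM in S12, S13 and S14. The C57BL/6 libraries differed more among themselves than the BALB/c libraries, and all lay below them, with a log2 fold change of -1.03 ± 0.19 (SE) (edgeR, adjusted p = 0.00141). Without S13 the value was -0.94 (adjusted p = 0.00798) and without S14 -0.86 (adjusted p = 0.00505), both under 2-fold. Zfp821 (chr8:110431407-110452790, plus strand), with 2 fingers and no KRAB match, measured 3.96, 4.60 and 3.25 CPM in S9, S10 and S11 and 2.19, 0.628 and 1.92 CPM in S12, S13 and S14. S13 was the low library here, the log2 fold change was -1.28 ± 0.34 (SE) (edgeR, adjusted p = 0.0114), and without S13 it was -0.93 (adjusted p = 0.00621). The call was also lost with same-version transcripts alone, at -1.15 (adjusted p = 0.0502), and with unmatched transcripts kept, at -1.32 (adjusted p = 0.0765).

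The remaining BALB/c-high calls rest on few reads. Zfp870 (chr17:33097714-33110623, minus strand), a KRAB gene with 10 fingers, had 89, 75 and 82 reads in S9, S10 and S11 and 24, 29 and 0 reads in S12, S13 and S14. S14 alone had no read, although it was the deepest library, and the log2 fold change of -2.10 ± 0.64 (SE) (edgeR, adjusted p = 0.0215) lost its call without S9, at -2.01 (adjusted p = 0.0574), without S10, at -2.09 (adjusted p = 0.0513), and with DESeq2, at -2.05 (adjusted p = 0.255). Zfp964 (chr8:70107112-70119781, plus strand), also a KRAB gene, had 24, 29 and 38 reads in S9, S10 and S11 and 11, 10 and 22 reads in S12, S13 and S14. Its log2 fold change of -1.01 ± 0.30 (SE) (edgeR, adjusted p = 0.0197) became -0.97 (adjusted p = 0.0559) without S10, -0.93 (adjusted p = 0.0668) without S11, -0.85 (adjusted p = 0.0776) without S12 and -0.90 (adjusted p = 0.0720) without S13. It was -1.02 (adjusted p = 0.0927) with DESeq2, -1.03 (adjusted p = 0.0729) with unmatched transcripts kept and -0.86 (adjusted p = 0.00440) with limma on log2(TPM + 0.1), none of them a call. Zfp781, which had no position in GENCODE's annotation and was named after its values were seen, had 20, 22 and 34 reads in S9, S10 and S11 and 8, 0 and 0 reads in S12, S13 and S14, a log2 fold change of -3.11 ± 0.75 (SE) (edgeR, adjusted p = 0.00712). All its C57BL/6 reads were in S12, and the value ran from -7.63 without S12 to -0.31 with limma on log2(TPM + 1), a scale that understates low genes. It lost its call when unmatched transcripts were kept, at -3.12 (adjusted p = 0.126).

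In the other direction, Zfp950 (chr19:61041343-61129278, minus strand), with 17 fingers and no KRAB match, had the smallest adjusted p. It measured 5.21, 5.97 and 5.96 CPM in S9, S10 and S11 and 17.4, 16.1 and 15.1 CPM in S12, S13 and S14, and the lowest C57BL/6 library was more than 2 times the highest BALB/c library. The log2 fold change was 1.50 ± 0.09 (SE) (edgeR, adjusted p = 1.75e-06), or 2.83-fold higher in C57BL/6. Zfp608 (chr18:55021120-55125684, minus strand), a large protein of 1511 residues without a strict finger, measured 2.39, 2.92 and 1.97 CPM in S9, S10 and S11 and 5.70, 6.39 and 7.37 CPM in S12, S13 and S14. All C57BL/6 libraries were above the BALB/c libraries, with a log2 fold change of 1.43 ± 0.17 (SE) (edgeR, adjusted p = 9.41e-05). With only same-version transcripts summed it was at 2.03 (adjusted p = 0.265).

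Some members had almost no reads in BALB/c. Zfp987 (chr4:146033821-146068850, plus strand), a KRAB gene with 14 fingers, had 2, 0 and 0 reads in S9, S10 and S11 and 83, 96 and 123 reads in S12, S13 and S14. All but 2 of its reads were thus from C57BL/6, and the fitted log2 fold change of 7.06 ± 0.50 (SE) (edgeR, adjusted p = 3.81e-06) depends on those few reads. Zfp988 (chr4:147390131-147422025, plus strand), a KRAB gene with 14 fingers as well, had 2, 1 and 1 reads in S9, S10 and S11 and 16, 11 and 19 reads in S12, S13 and S14, a fitted log2 fold change of 3.47 ± 0.46 (SE) (edgeR, adjusted p = 2.27e-04). Since both share sequence, their reads were also summed, which gave 4, 1 and 1 reads in BALB/c and 99, 107 and 142 reads in C57BL/6, with a log2 fold change of 5.84 ± 0.36 (SE). The difference was thus present in the summed reads as well.

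Zfp939 (chr7:39098844-39127142, plus strand), which GENCODE lists as a long noncoding RNA and RefSeq as protein-coding, had 3, 0 and 0 reads in S9, S10 and S11 and 12, 71 and 54 reads in S12, S13 and S14. S12 was far below the other C57BL/6 libraries, and the fitted value of 5.45 ± 1.03 (SE) (edgeR, adjusted p = 0.00183) depends on the few reads in S9. It ran from 0.62 with limma on log2(TPM + 1) to 8.59 without S9. Zfp711 (chrX:111510223-111544836, plus strand), an X-linked gene whose human counterpart is mutated in intellectual disability, was named after its values were seen. It had 0, 0 and 0 reads in S9, S10 and S11 and 14, 19 and 15 reads in S12, S13 and S14. Against a floor of 3 reads per library it was at least 5.69-fold higher in C57BL/6 (edgeR, adjusted p = 4.49e-04). Zfp979 (chr4:147696389-147782960, minus strand), a KRAB gene with 3 fingers, had 37, 35 and 32 reads in S9, S10 and S11 and 85, 41 and 79 reads in S12, S13 and S14, with S13 near the BALB/c level. Its log2 fold change of 1.02 ± 0.25 (SE) (edgeR, adjusted p = 0.00782) lay at the threshold and was 0.87 (adjusted p = 0.0323) without S11, 0.84 (adjusted p = 0.0365) without S12 and 0.99 (adjusted p = 0.0280) without S14. With only same-version transcripts summed it was at 0.66 (adjusted p = 0.207), and the adjusted p was no longer passed.

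**Figure D3:**
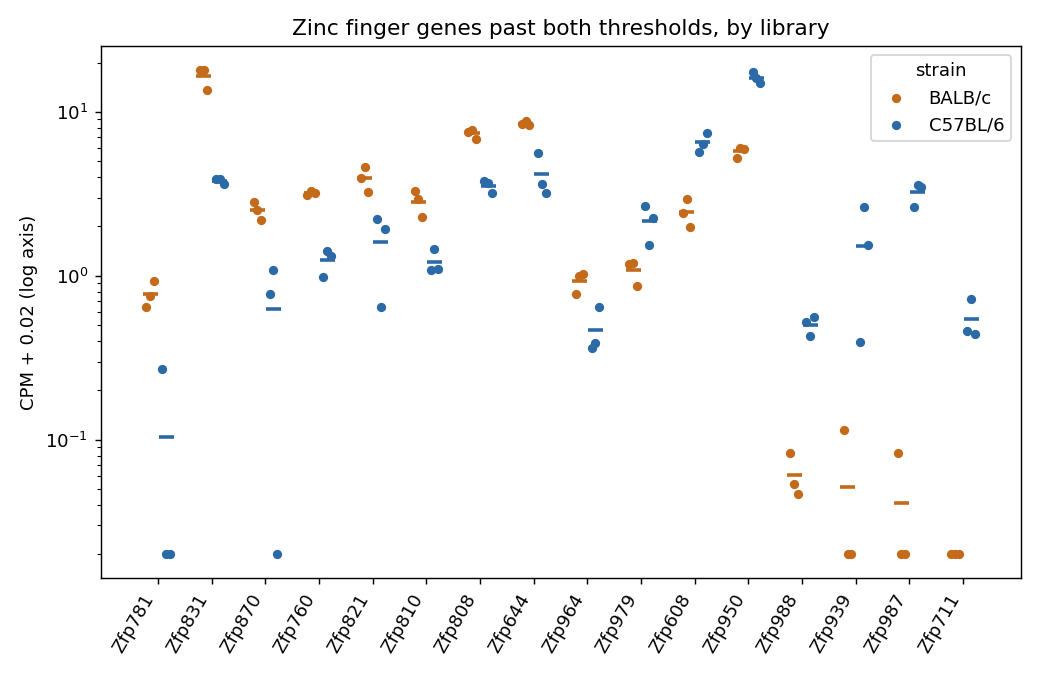
CPM plus 0.02 on a log axis for the 16 called members in each library, ordered by log2 fold change, with points for libraries and lines for the mean of a strain. Zfp711 is at 0 in the BALB/c libraries and Zfp987 has 2 reads in S9 alone, while Zfp831 and Zfp950 are well separated at higher levels.

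Next, the members were placed along the genome. Of 181 members, 179 had a position in GRCm39, on 20 chromosomes, and runs of at least 3 members with neighbours within 1 Mb of each other were counted. There were 16 such runs. The run on chromosome 4, from 145237287 to 147932882, held 14 members. Of its 9 tested members 3 were called, Zfp987, Zfp988 and Zfp979, all higher in C57BL/6, against 7.73% of all genes tested. Zfp987 and Zfp988 passed the filter through their C57BL/6 reads alone, so they could be called in that direction only. They also share sequence and are not independent, so this count is no test of the run. Zfp984 passed the adjusted p alone in the same direction, and none passed it in the other. The others measured 0.49 (adjusted p = 0.0596) for Zfp992, 0.54 (adjusted p = 0.571) for Zfp978, 0.17 (adjusted p = 0.616) for Zfp982, 0.01 (adjusted p = 0.914) for Zfp933 and -0.05 (adjusted p = 0.790) for Zfp991. Zfp600, Zfp980, Zfp981, Zfp985 and Zfp990 had too few reads to test, and Zfp985 had none.

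The longer run on chromosome 17, from 21603988 to 23086292, also held 14 members, all tested, and moved both ways. By the adjusted p alone 7 were higher in C57BL/6 (background 27.0%), led by Zfp948 at 0.999 (adjusted p = 0.00117), Zfp820 at 0.94 (adjusted p = 0.00482) and Zfp944 at 0.91 (adjusted p = 1.21e-05), followed by Zfp943, Zfp983, Zfp758 and Zfp945. Zfp760 and Zfp947 were higher in BALB/c, Zfp947 at -0.47 (adjusted p = 0.0483). Zfp944, the most precisely measured, had 7.04, 7.62 and 7.48 CPM in S9, S10 and S11 and 13.5, 13.8 and 14.2 CPM in S12, S13 and S14, without overlap. Zfp948 lay just under 2-fold and was above it in several alternatives. The shorter run, from 32984470 to 33527276, held 8 members, of which 4 of 7 tested passed the adjusted p, against 52.9% of all genes tested, and all 4 were higher in BALB/c, where the background was 25.9%. These were Zfp870, Zfp763 at -0.67 (adjusted p = 0.00401), Zfp955b at -0.61 (adjusted p = 0.00439) and Zfp799 at -0.43 (adjusted p = 0.0253), while Zfp871 at -0.18 (adjusted p = 0.395), Zfp952 at 0.05 (adjusted p = 0.657) and Zfp955a at -0.04 (adjusted p = 0.795) did not pass.

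**Figure D4:**
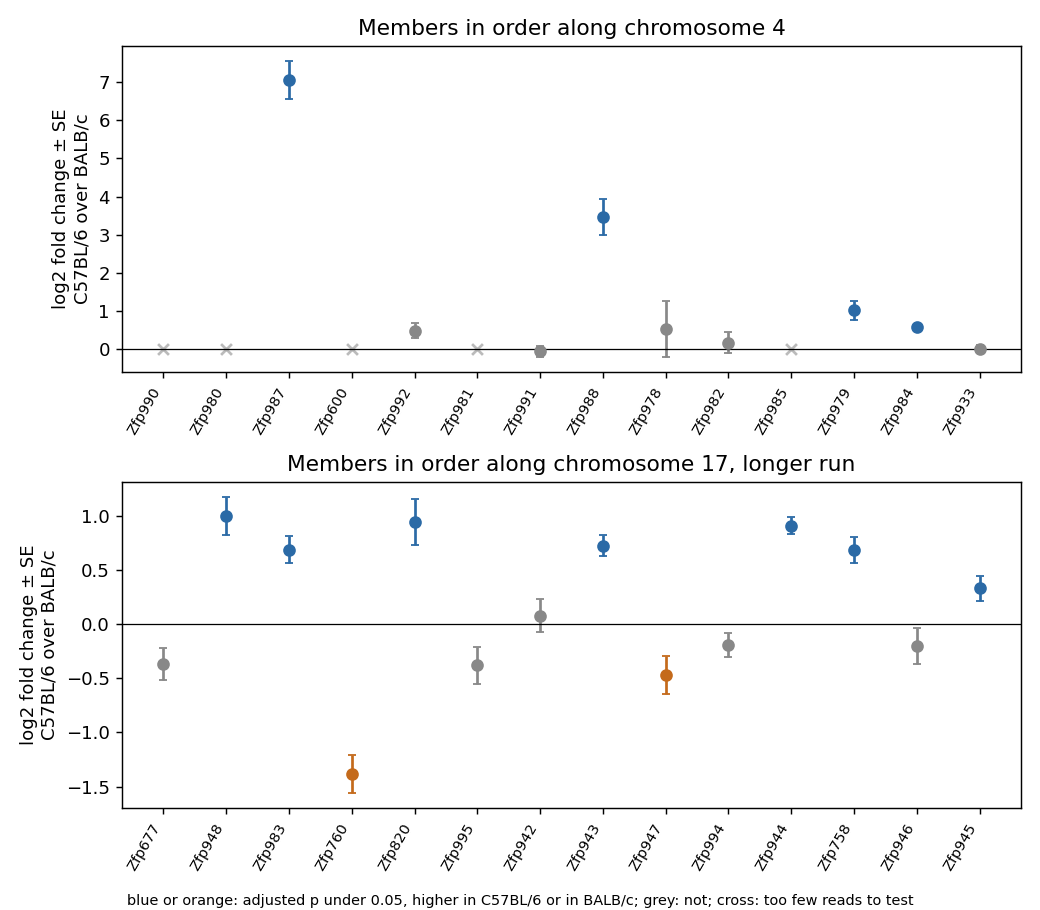
Log2 fold change, as C57BL/6 over BALB/c, with its standard error for the members in order along the run on chromosome 4 and the longer run on chromosome 17. Blue and orange points passed an adjusted p of 0.05, and crosses at 0 mark members with too few reads to test. On chromosome 4 the 4 blue points are Zfp987, Zfp988, Zfp979 and Zfp984, and on chromosome 17 both colours occur.

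On chromosome 8, from 69661686 to 70243828, neighbours differed in direction. Zfp868 was lower in C57BL/6 at -0.74 (adjusted p = 4.79e-05) together with Zfp964, and Zfp869 at 0.54 (adjusted p = 5.42e-05) and Zfp866 at 0.68 (adjusted p = 9.20e-04) were higher. Zfp868 measured 17.9, 18.0 and 20.1 CPM in S9, S10 and S11 and 10.6, 11.6 and 11.5 CPM in S12, S13 and S14, and Zfp869 measured 20.5, 19.0 and 19.9 CPM in S9, S10 and S11 and 30.0, 28.9 and 27.6 CPM in S12, S13 and S14, and for neither gene did the strains overlap. Zfp930 at -0.36 (adjusted p = 0.0518) and Zfp963 at -0.44 (adjusted p = 0.116) did not pass. In the run of 3 members on chromosome 13 from 62277700 to 62719013, Zfp808 and Zfp934, at -0.57 (adjusted p = 0.00844), were both higher in BALB/c, and Zfp935 was at -0.15 (adjusted p = 0.162). In the run of 4 members on chromosome 9, Zfp810 was called, and Zfp809, which silences murine leukemia viruses in embryonic cells, was at -0.18 (adjusted p = 0.191), Zfp653 at -0.25 (adjusted p = 0.0825), and Zfp872 had no read. In the run of 9 members on chromosome 2 with Zfp831, none of the other 5 tested genes passed. These were Zfp967 at -0.10 (adjusted p = 0.941), Zfp970 at 0.18 (adjusted p = 0.348), Zfp971 at -0.30 (adjusted p = 0.0580), Zfp972 at 0.49 (adjusted p = 0.333) and Zfp973 at 1.11 (adjusted p = 0.189). Zfp931 and Zfp968 had no read.

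The promoters of genes in these runs were compared as 300 bases, from 250 before to 50 after the start, taken from RefSeq's table for GRCm38.p6. The table held 187 promoters of 157 members. They are shown 5′ to 3′ on the strand of the gene with CG dinucleotides in capitals, for the members of the chromosome 4 run that passed the test and for Zfp944 and Zfp760 of chromosome 17, which moved in opposite directions. The positions are chr4:146097062-146097361 (plus strand) for Zfp987, chr4:147305354-147305653 (plus strand) for Zfp988, chr4:147642459-147642758 (minus strand) for Zfp979, chr4:147809739-147810038 (minus strand) for Zfp984, chr17:22361351-22361650 (minus strand) for Zfp944 and chr17:21707491-21707790 (plus strand) for Zfp760.
Zfp987: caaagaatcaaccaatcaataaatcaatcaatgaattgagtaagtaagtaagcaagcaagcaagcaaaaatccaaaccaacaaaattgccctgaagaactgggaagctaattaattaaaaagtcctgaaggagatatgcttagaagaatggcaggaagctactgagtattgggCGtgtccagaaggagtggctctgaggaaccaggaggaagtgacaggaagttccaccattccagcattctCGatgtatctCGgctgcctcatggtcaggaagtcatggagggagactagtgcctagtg
Zfp988: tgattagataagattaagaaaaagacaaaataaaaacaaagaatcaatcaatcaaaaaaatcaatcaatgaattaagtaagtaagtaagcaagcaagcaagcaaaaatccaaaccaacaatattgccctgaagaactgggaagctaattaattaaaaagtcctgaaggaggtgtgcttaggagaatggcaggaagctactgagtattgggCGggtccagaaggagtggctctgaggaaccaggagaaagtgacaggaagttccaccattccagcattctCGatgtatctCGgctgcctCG
Zfp979: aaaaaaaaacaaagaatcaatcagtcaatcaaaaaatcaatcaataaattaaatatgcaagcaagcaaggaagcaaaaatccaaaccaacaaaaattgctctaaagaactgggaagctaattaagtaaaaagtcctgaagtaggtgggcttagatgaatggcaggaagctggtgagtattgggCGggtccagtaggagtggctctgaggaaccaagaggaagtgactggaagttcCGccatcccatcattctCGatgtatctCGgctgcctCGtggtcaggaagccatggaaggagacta
Zfp984: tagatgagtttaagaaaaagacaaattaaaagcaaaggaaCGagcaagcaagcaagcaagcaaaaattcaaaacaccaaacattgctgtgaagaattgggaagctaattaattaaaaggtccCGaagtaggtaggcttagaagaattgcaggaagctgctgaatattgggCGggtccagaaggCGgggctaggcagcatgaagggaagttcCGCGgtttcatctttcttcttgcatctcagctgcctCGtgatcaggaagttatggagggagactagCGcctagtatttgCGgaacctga
Zfp944: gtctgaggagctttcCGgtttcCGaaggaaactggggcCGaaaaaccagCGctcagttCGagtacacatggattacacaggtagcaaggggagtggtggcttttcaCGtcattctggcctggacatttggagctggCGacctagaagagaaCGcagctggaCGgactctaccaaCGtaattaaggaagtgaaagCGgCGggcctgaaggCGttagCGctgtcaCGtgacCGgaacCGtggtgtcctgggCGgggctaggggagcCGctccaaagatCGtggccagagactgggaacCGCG
Zfp760: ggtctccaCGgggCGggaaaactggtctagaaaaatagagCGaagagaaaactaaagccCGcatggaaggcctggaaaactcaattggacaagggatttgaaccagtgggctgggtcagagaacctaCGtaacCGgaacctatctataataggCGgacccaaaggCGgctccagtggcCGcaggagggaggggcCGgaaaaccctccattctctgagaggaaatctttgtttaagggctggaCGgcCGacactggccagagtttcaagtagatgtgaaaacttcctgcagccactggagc
In pairwise global alignments, the promoter of Zfp987 was 82.9% identical to that of Zfp979, 75.4% to that of Zfp988 and 72.9% to that of Zfp984. Zfp988 and Zfp979 were 74.1% identical, Zfp979 and Zfp984 68.2%, and Zfp988 and Zfp984 59.4%. Between Zfp944 and Zfp760 the identity was 46.9%, similar to the 45.3% between Zfp987 and Zfp944 on different chromosomes. The promoters of Zfp987, Zfp988, Zfp979 and Zfp984 held 3, 4, 5 and 9 CG dinucleotides, and those of Zfp944 and Zfp760 held 22 and 12. The median was 11 over the promoters of all members and 7 over all 32851 promoters of the table. Short motifs were searched on both strands, with overlaps between motifs allowed. CCAAT was in 57.2% of member promoters and 37.4% of all promoters, GGGCGG in 42.8% and 35.7%, CCGGAAG in 17.6% and 8.86%, and TATAAA in 4.81% and 13.6%. These are descriptions of sequence, and no binding was measured.

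Several members share so much sequence that their own values may be uncertain. With words of 31 bases from GENCODE's transcripts of GRCm39, 30 members shared at least 25% of their words with another gene. The counts are of RefSeq transcripts, for which these shares need not hold. Zfp960 shared 85.0% of its words with Zfp97 and had a log2 fold change of -0.37 ± 0.42 (SE) by itself, and the sum of both genes was higher in C57BL/6 at 0.63 ± 0.09 (SE, edgeR, adjusted p = 3.49e-04). Zfp97 held 173, 164 and 215 of the 185, 170 and 237 summed reads in S9, S10 and S11. In S12, S13 and S14 it held 278, 250 and 307 of 286, 259 and 319. By itself Zfp97 was at 0.67 (edgeR, adjusted p = 1.78e-04), so the sum does not give the direction of Zfp960. Zfp978 shared 34.4% to 58.1% of its words with Rex2, Zfp600, Zfp979 and Zfp980, and a sum over it, these and Zfp981 was at 1.01 ± 0.25 (adjusted p = 0.00865), past both thresholds, where Zfp979 was called by itself and Zfp978 was not. Zfp934 shared 33.1% to 40.7% with Me3, Scg5 and Zfp69, Zfp808 shared 30.8% with Zfp934, and the sum of all 5 was at -1.05 ± 0.07 (adjusted p = 1.67e-06), past both thresholds. In this sum Zfp808, Me3 at -1.59 (adjusted p = 1.95e-04) and Zfp69 at -1.65 (adjusted p = 1.24e-04) were called by themselves and Zfp934 was not. The words shared with Zfp934 were 18.5% of those of Me3. Whether reads were divided wrongly among these 5 genes was not tested, so the sum does not settle the value of Zfp934. For Zfp955a and Zfp955b the sum was at -0.31 ± 0.08 (adjusted p = 0.0128), between their separate values. Zfp932, which with its close copy Gm15446 acts on endogenous retroviruses, was at 0.16 (adjusted p = 0.128) alone and at 0.18 ± 0.08 (adjusted p = 0.104) with that copy. Zfp937 was higher in C57BL/6 at 0.72 (adjusted p = 0.00301) and was at 0.35 ± 0.09 (adjusted p = 0.00834) when summed with 3300002I08Rik and Zfp442. Zfp747 at -0.23 (adjusted p = 0.142) and Zfp764 at -0.17 (adjusted p = 0.0976) gave -0.19 ± 0.07 (adjusted p = 0.0422) together. Zfp708 at 0.25 (adjusted p = 0.459), Zfp658 at -0.29 (adjusted p = 0.538) and Zfp959 at -0.08 (adjusted p = 0.567) did not pass, Zfp996 had at most 4 reads per library, and Zfp640 had none.

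Estimated counts of single transcripts were tested as well, and those of members were called at about the share of all transcripts. Of 795 transcripts of members 349 were tested and 22 (6.30%) were called, against 6.32% of all 31918 tested transcripts. Of these 14 were higher in C57BL/6 (background 3.64%) and 8 in BALB/c (background 2.68%). They belonged to 16 genes, and 10 of these were not called as genes, which is 6.94% of members with a tested transcript, against 4.30% over all genes. Of the 22, 15 (68.2%) had 0 reads in all libraries of a strain, against 30.2% of all called transcripts. Zfp758, Zfp950 and Zfp994 had transcripts called in each direction. With 1 library left out the count was 12, 14 and 13 without S9, S10 and S11 and 8, 8 and 6 without S12, S13 and S14. The division of reads between transcripts of a gene is itself an estimate, and its error is not part of this test.

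Zfp758, a KRAB gene of the longer chromosome 17 run, was at 0.69 (adjusted p = 0.00125) as a gene. Its transcript NM_145484.2 had 184, 177 and 181 reads in S9, S10 and S11 and 57, 28 and 39 in S12, S13 and S14, a log2 fold change of -2.09 ± 0.33 (SE) (edgeR, adjusted p = 0.0136). NM_001347330.1 had 0, 0 and 0 reads in S9, S10 and S11 and 102, 171 and 214 in S12, S13 and S14 (edgeR, adjusted p = 0.00710). NM_145484.2 was the main transcript in each BALB/c library and a minor one in each C57BL/6 library.

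Zfp994, at -0.20 (adjusted p = 0.163) as a gene and so not passing, had transcripts called both ways as well. NM_001205095.1 had 233, 227 and 344 reads in S9, S10 and S11 and 101, 82 and 70 in S12, S13 and S14, a log2 fold change of -1.58 ± 0.26 (SE) (edgeR, adjusted p = 0.0159). XM_030249774.1 had 0, 0 and 0 reads in S9, S10 and S11 and 40, 70 and 23 in S12, S13 and S14 (edgeR, adjusted p = 0.0284). For Zfp950, NR_131956.1 had 0, 0 and 0 reads in S9, S10 and S11 and 29, 69 and 83 in S12, S13 and S14 and NM_001309195.1 had 0, 0 and 0 reads in S9, S10 and S11 and 50, 19 and 19 in S12, S13 and S14, both with no read in BALB/c, whereas NM_001309216.1 had 23, 14 and 20 reads in S9, S10 and S11 and 0, 0 and 0 in S12, S13 and S14 (edgeR, adjusted p = 0.0188, 0.0287 and 0.0225). Of Zfp869, 3 transcripts had reads in all C57BL/6 libraries and none in BALB/c, among them NM_001039967.1 with 0, 0 and 0 reads in S9, S10 and S11 and 341, 122 and 163 in S12, S13 and S14. Its main transcript NM_001039965.1 had 555, 510 and 698 reads in S9, S10 and S11 and 448, 475 and 632 in S12, S13 and S14 and was not called, at -0.12 ± 0.12 (SE).

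**Figure D5:**
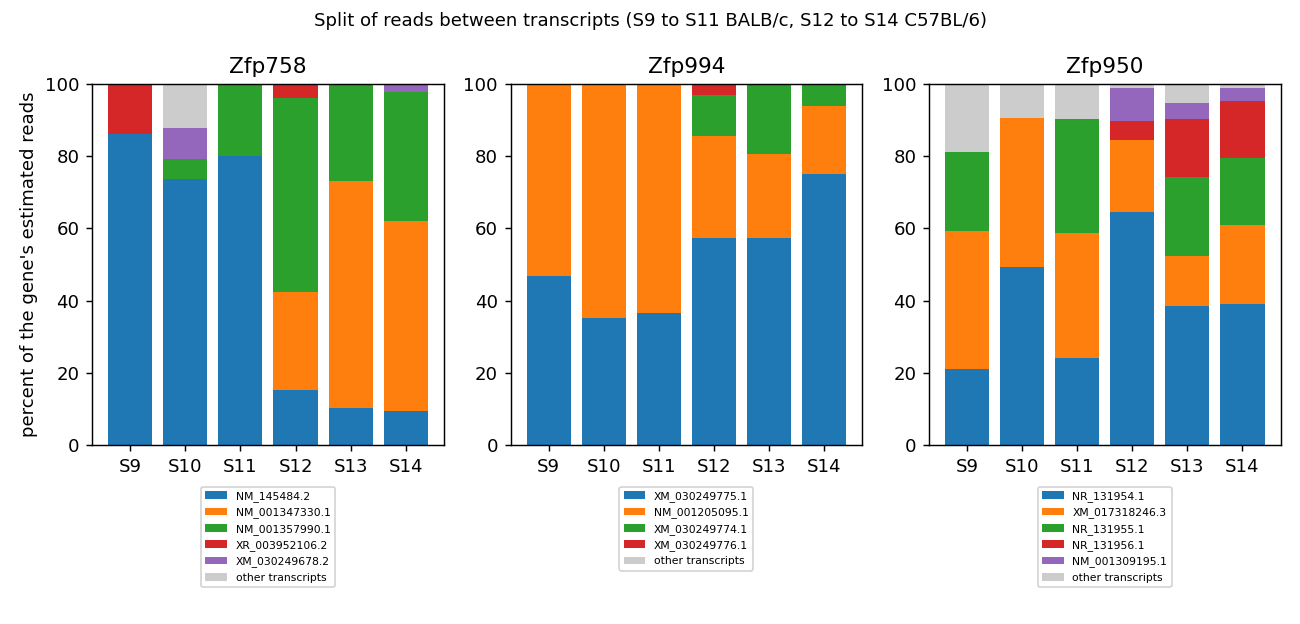
Percent of the estimated reads of Zfp758, Zfp994 and Zfp950 on each of their 5 transcripts with the most reads (the rest in grey) in each library. NM_145484.2 takes most of Zfp758 in S9 to S11 and a small part in S12 to S14, and XM_030249774.1 of Zfp994 occurs in S12 to S14 only.

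The RNA of genes for the partners of KRAB zinc finger proteins was read from a list of corepressor and heterochromatin genes. Of 32 symbols, which include 2 for 1 gene, 31 were found and 30 tested, and 0 passed both thresholds with edgeR's quasi-likelihood test, with DESeq2 also at 0, where 13.3% of all genes tested passed them with edgeR. At an unadjusted p under 0.05 there were 20, against 58.2% of all genes tested, and by the adjusted p alone 18 of the 30, against 52.9% of all genes tested, so the count was near the background. Of the 18, 15 were higher in BALB/c (background 25.9%) and 3, Trim24, Trim33 and Resf1, higher in C57BL/6 (background 27.0%). With DESeq2 size factors Trim24 was at 0.34 (edgeR, adjusted p = 0.00203), Trim33 at 0.21 (edgeR, adjusted p = 0.00693) and Resf1 at 0.16 (edgeR, adjusted p = 0.0129). All 3 passed there and with upper-quartile scaling. Values of the 15 under other scalings are not given here. Scaled by plain library size, which moved the median of all genes from -0.01 to -0.15, Trim33 was at 0.064 (edgeR, adjusted p = 0.334) and Resf1 at 0.0082 (edgeR, adjusted p = 0.873), so neither passed. Trim24 still passed at 0.19 (edgeR, adjusted p = 0.0323). With limma on log2(TPM + 1) Resf1 was at -0.018 (adjusted p = 0.773), the opposite sign, and Trim24 at 0.14 (adjusted p = 0.124) no longer passed, with the median of all genes again at -0.15. Trim28, the corepressor that the KRAB box binds, measured 250.1 ± 2.28 CPM in BALB/c, against 219 ± 4.08 CPM in C57BL/6 (SD, n = 3 each). Its log2 fold change was -0.19 ± 0.03 (SE) (edgeR, adjusted p = 0.00139). Setdb1, the methyltransferase it recruits, was at -0.15 ± 0.07 (SE) (adjusted p = 0.0825). The heterochromatin protein genes Cbx1, Cbx3 and Cbx5 were at -0.36, -0.46 and -0.43, and Uhrf1, which guides DNA methylation, at -0.44, all passing the adjusted p. The median of the tested list was -0.14, close to the -0.13 of the zinc finger genes, and its summed level ran from 2811 to 2875 CPM in BALB/c libraries, against 2487 to 2550 CPM in C57BL/6.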

How the data were processed

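RNA of BMMCs on day 20 was analysed, 3 libraries per strain. The authors prepared stranded mRNA libraries, read paired ends of 100 bases, checked them with FastQC 0.11.5 and quantified transcripts with Salmon 0.8.2. The deposited tables hold estimated counts, which need not be whole, TPM and transcript lengths per transcript. The methods name Ensembl transcripts of GRCm39, whereas the deposited tables list RefSeq accessions.

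Accessions were matched to symbols, versions removed, with RefSeq's gene table of GRCm38.p6: 106440 of 129698 transcripts (82.1%) matched, and unmatched ones held 2.69% to 3.12% of reads. Estimated counts were summed by gene, rounded and tested with edgeR 4.0.16 (R 4.3.3; quasi-likelihood test, TMM, minimum count of 10, strain alone, Benjamini-Hochberg over 12461 genes), with the study's thresholds of an adjusted p under 0.05 and a fold above 2. Positions and coding sequences are from GENCODE's GRCm39 annotation, matched by symbol. The reference assembly derives from C57BL/6J, and whether BALB/c reads matched it less well was not tested.

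Alternatives used DESeq2 1.42.0, limma 3.58.1 on log2 TPM with a pseudocount of 1 or 0.1, other scalings and filters, edgeR's test against a 2-fold change, and each library left out. The tests were checked on simulated data. The members and lists were chosen with earlier results of these data known. Named members are those called with a mean of at least 20 counts and no overlap (up to 12 per direction), the 6 highest by TPM, those with at most 3 reads per library in 1 strain and a mean of at least 20 in the other, those that share sequence, those in a run with a called member, and those with transcripts called both ways.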

Additional observations from a re-analysis of the deposited data

How the results depend on the processing

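The main counts were 7 members for C57BL/6 and 9 for BALB/c. They became 4 in C57BL/6 with at least 10 counts in every library, 2 and 3 with a mean of at least 100 counts, and 2 and 1 with limma on log2(TPM + 1), which compresses low genes. Over all genes the calls went from 1653 to 1017, 773 and 799 in these alternatives, and to 1060 in a test against a 2-fold change. For BALB/c the count was 1 in a test against a 2-fold change and 5 with unmatched transcripts kept. By the adjusted p alone the counts were 25 and 39, and 18 for the corepressor list. Leaving out 1 library gave 7 to 9 and 6 to 9 members. The 22 called transcripts became 8 with at least 10 counts in every library and 6 to 14 with 1 library left out. In the test against a 2-fold change, compared for single members after seeing the data, 9 of the 16 called members lost their call, Zfp979 and all of those higher in BALB/c but Zfp831. Zfp831, Zfp950 and Zfp987 kept their call in the alternatives that could test them, this one included, and 0 of the 16 reversed. Over 68 named members, 1458 values were compared, of which 1347 kept direction and side of the thresholds, 52 were weaker, 12 stronger and 47 reversed.

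With plain library size the median over all genes went from -0.01 to -0.15 and that of the members from -0.13 to -0.27. Values that reversed were Zfp740 (-0.0069), Zfp771 (-0.0062) and Zfp933 (-0.0061) with upper-quartile scaling, and Zfp740, Zfp771 and Zfp933 (-0.13 each), Zfp942 (-0.067) and Zfp952 (-0.097) with plain library size. With limma on log2(TPM + 1) they were Zfp740 (-0.16), Zfp771 (-0.15), Zfp932 (-0.052), Zfp933 (-0.080), Zfp942 (-0.059), Zfp952 (-0.12) and Zfp982 (-0.0085). With log2(TPM + 0.1) they were Zfp740 (-0.17), Zfp771 (-0.16), Zfp932 (-0.059), Zfp933 (-0.10), Zfp942 (-0.065), Zfp952 (-0.14) and Zfp982 (-0.043). With same-version transcripts alone they were Zfp942 (-0.0032), Zfp952 (-0.12) and Zfp955a (0.13), and with sequence-sharing genes summed Zfp960 (0.63, mostly reads of Zfp97), Zfp967 and Zfp971 (0.077 each) and Zfp991 (0.20). The 5 values that reversed with plain library size moved with the median of all genes. That median was at -0.03 with upper-quartile scaling, at -0.15 with limma on log2(TPM + 1) and at -0.18 on log2(TPM + 0.1). All reversals listed under these settings were towards BALB/c as well. What caused the reversals was not tested. With 1 library left out the ranges were -0.51 to 0.037 for Zfp658, -0.0100 to 0.052 for Zfp740, -0.028 to 0.059 for Zfp771, -0.35 to 0.017 for Zfp871, -0.072 to 0.076 for Zfp933, -0.10 to 0.21 for Zfp942, -0.10 to 0.023 for Zfp955a, -0.13 to 0.0036 for Zfp959, -1.01 to 0.49 for Zfp967, -0.053 to 0.42 for Zfp982 and -0.23 to 0.081 for Zfp991. No paired analysis was possible because the library numbers are not shared between the strains. Few reads limit the genes under about 20 counts.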

Other observations

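Some members outside the naming rule passed the test with a fold change under 2 and were singled out after their values were seen. Zfp748, in the longer chromosome 13 run of 11 members, measured 10.6, 9.60 and 9.52 CPM in S9, S10 and S11 and 4.57, 5.21 and 5.31 CPM in S12, S13 and S14. Its libraries did not overlap, and the log2 fold change was -0.98 ± 0.10 (SE) (edgeR, adjusted p = 4.01e-05). In the same run Zfp759 was at -0.62 (adjusted p = 0.0257), Zfp729b at -0.46 (adjusted p = 0.00127) and Zfp738 at -0.28 (adjusted p = 0.0134), whereas Zfp874a lay the other way at 0.36 (adjusted p = 0.0338). Zfp704 and Zfp703 matched neither the KRAB pattern nor a strict finger. Zfp704 measured 68.2, 65.3 and 56.9 CPM in S9, S10 and S11 and 103, 105 and 103 CPM in S12, S13 and S14, higher in every C57BL/6 library at 0.71 ± 0.06 (SE) (edgeR, adjusted p = 1.40e-05). Zfp703, a transcriptional cofactor amplified in breast cancer, measured 44.4, 47.5 and 41.5 CPM in S9, S10 and S11 and 34.9, 33.3 and 34.2 CPM in S12, S13 and S14, higher in every BALB/c library at -0.38 ± 0.06 (SE) (edgeR, adjusted p = 4.32e-04).

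Some genes that were not called as genes had a called transcript with reads in 1 strain only. For Zfp710, at 0.28 (adjusted p = 0.00207) as a gene, NM_001146000.1 had 0, 0 and 0 reads in S9, S10 and S11 and 67, 70 and 121 in S12, S13 and S14 (edgeR, adjusted p = 0.00823). For Zfp672, NM_001256518.1 had 0, 0 and 0 reads in S9, S10 and S11 and 41, 20 and 63 in S12, S13 and S14 (edgeR, adjusted p = 0.0192). The reverse was found for Zfp945, where XM_030249782.2 had 66, 59 and 150 reads in S9, S10 and S11 and 0, 0 and 0 in S12, S13 and S14, although the gene as a whole was higher in C57BL/6 at 0.33 (adjusted p = 0.0395), and at 1.04 (adjusted p = 0.0264) with same-version transcripts alone. For Zfp934 NM_001162911.2 had 50, 24 and 22 reads in S9, S10 and S11 and 0, 0 and 0 in S12, S13 and S14, and for Zfp958 NM_001368404.1 had 27, 12 and 20 reads in S9, S10 and S11 and 0, 0 and 0 in S12, S13 and S14.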
